A study of Mus musculus with 4 samples.

Results

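The matrix metalloproteinases (MMP), the ADAM and ADAMTS proteases and their tissue inhibitors (TIMP) were followed in mammary cells sorted by expression of Lgr6. Their genes were chosen by symbol alone, as all rows of the count table named Mmp, Adam or Adamts with a number, or Timp with a single digit. This gave 79 of 24442 genes, with 23 MMP, 33 ADAM, 19 ADAMTS and 4 TIMP genes. The cells were from mammary tissue of female mice, 5 weeks of age, with the Lgr6-eGFP-CreErt2 allele, a green fluorescent reporter with an inducible recombinase at the Lgr6 locus, in both groups. Lineage-negative cells were sorted into those positive for Lgr6 (Lgr6+, 2 libraries) and those negative for it (Lgr6-, 2 libraries). The protocol given for the Lgr6- libraries describes the same sort for LGR6+ cells as that for the Lgr6+ ones, and neither the lineage markers nor the negative gate is stated in the sources used here. The mouse strain, any tamoxifen treatment and whether replicates came from separate animals are likewise not stated, so the p-values rest on the spread between libraries alone, which may be technical.

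MMPs, ADAMs and ADAMTSs are zinc-dependent proteases. Secreted MMPs cut collagens, elastin and other matrix proteins, and membrane-type MMPs do so at the cell surface. ADAMs are membrane proteins, several of which release growth factors and receptor domains from the cell surface, and ADAMTSs are secreted proteases that trim proteoglycans and procollagens. TIMPs bind and inhibit these enzymes. In the growing mammary gland, ducts advance into the fat pad while the surrounding matrix is remodelled, and shedding of the growth factor amphiregulin by ADAM17 is known to be needed for ductal outgrowth.

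The libraries held between 6819127 and 7167465 counts, of which the ribosomal RNA gene Rn45s took 14.5% to 30.8%. For all libraries the RNA was given as 7 to 25 pg per µl with an integrity number of 5 to 8. Libraries were made with 18 PCR cycles. The part of this low input in the differences between replicates and in counts of 0 was not tested. Lgr6 itself had 172 and 655 against 3 and 10 counts (log2 fold change 5.52, adjusted p = 0.0510 in edgeR), where here and below the Lgr6+ values stand first. Markers of several cell types moved between the populations. Of leukocyte markers, 5 of 5 were lower in Lgr6+ cells, at a summed level of 135 to 246 against 4933 to 5426 CPM, which are counts scaled to a common library size and for library composition. Luminal markers (7 of 9 higher, 4780 to 4822 against 120 to 150 CPM), endothelial markers (5 of 7, 1389 to 1663 against 131 to 190 CPM) and fibroblast markers (3 of 8, 629 to 887 against 40.3 to 74.7 CPM) went the other way. So did basal markers (3 of 8, 1981 to 2185 against 211.0 to 241.5 CPM). Pericyte markers (1 of 5 tested, 133.9 to 315.5 against 1.09 to 18.5 CPM) did too, with none lower in either list. In bulk RNA, fewer cells of a type and less RNA per cell cannot be told apart.

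Of the 79 genes, 54 had at least 1 count and 32 passed the filter on low counts. In edgeR's quasi-likelihood test over 11661 genes, 4 of these 32 were higher in Lgr6+ cells at a Benjamini-Hochberg adjusted p under 0.05, which is 12.5%, beside 4.49% of all tested genes. They were the inhibitor genes Timp2 and Timp3, the macrophage elastase gene Mmp12 and the proteoglycan protease gene Adamts4. None of the 32 was lower (0 of 32, beside 4.57% of all tested genes). At an unadjusted p under 0.05, 11 were higher and 4 lower, beside 14.3% and 10.8% of all tested genes. DESeq2 called 7 higher and 2 lower, beside 12.1% and 8.55%, and limma-voom 6 higher and 0 lower, beside 6.47% and 6.24%. The 32 genes had a median log2 fold change of 1.25, beside 0.10 over all tested genes. Libraries of the populations did not overlap for 17 genes on the higher side (53.1%, beside 30.0% of all tested genes) and for 7 on the lower side (21.9%, beside 25.9%). These shares describe the genes past the filter and support nothing further, since some genes passed it through 1 population alone. Through the Lgr6+ libraries alone, 7 genes passed it: Adamts2, Adamts3, Adamts4, Adamts5, Adamts12, Adamts15 and Mmp16. Through the Lgr6- libraries alone, 3 genes did: Adam22, Adam23 and Adamts14.

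**Figure D1:**
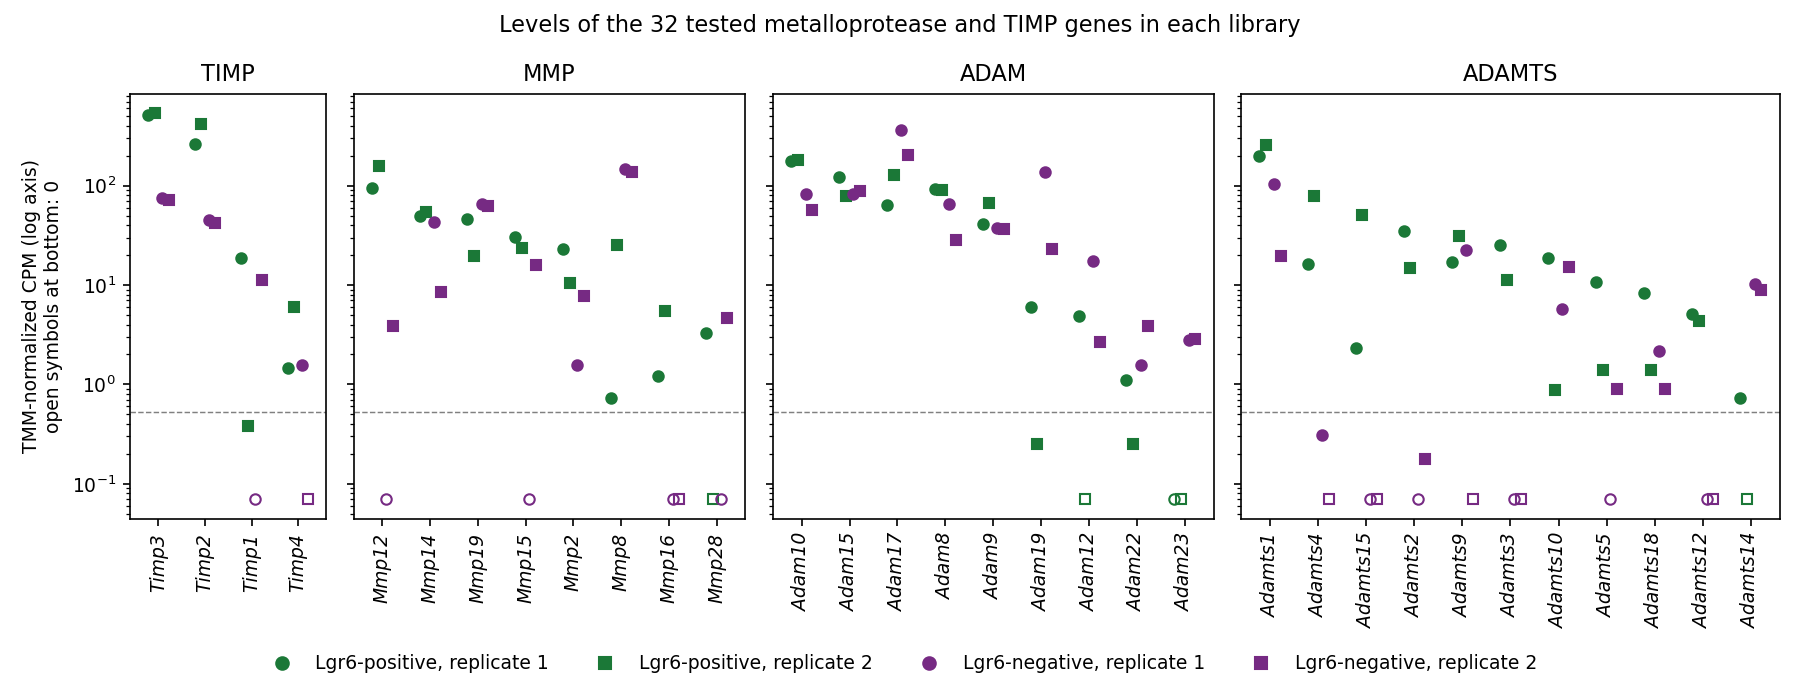
Level of each of the 32 tested genes in every library, as normalized CPM on a log axis, with genes ordered by their mean in Lgr6+ cells within each family. Open symbols at the bottom are libraries without counts, and the dashed line is 0.533 CPM, the highest of the levels that 3 counts give in a library. Timp3 and Timp2 lie apart by population, whereas libraries of Timp1, Adamts10 and Mmp28 are mixed.

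The 4 families made up 0.229% and 0.254% of all counts in the Lgr6+ libraries and 0.122% and 0.0681% in the Lgr6- libraries. Within these counts the make-up differed between the populations. TIMP genes held 41.5% and 42.7% of the counts in Lgr6+ but 9.30% and 14.4% in Lgr6- libraries. ADAM genes held 27.1% and 24.1% against 60.1% and 51.6%. MMP genes were at 13.6% and 13.2% against 19.5% and 27.9%, and ADAMTS genes at 17.8% and 20.0% against 11.1% and 6.04%. For each family the libraries of the populations did not overlap in this share, which does not depend on the scaling between libraries. The shares of a library add up to a fixed whole, so a larger TIMP share by itself lowers the others. In summed CPM, MMP genes were at 260.7 and 297.3 against 257.4 and 242.3. ADAM genes overlapped, at 519.7 and 544.2 against 793.4 and 448.3. TIMP genes were at 795.1 and 961.9 against 122.6 and 125.1, and ADAMTS genes at 341.1 and 451.7 against 145.9 and 52.44. With 2 libraries a group these shares and sums were not tested.

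**Figure D2:**
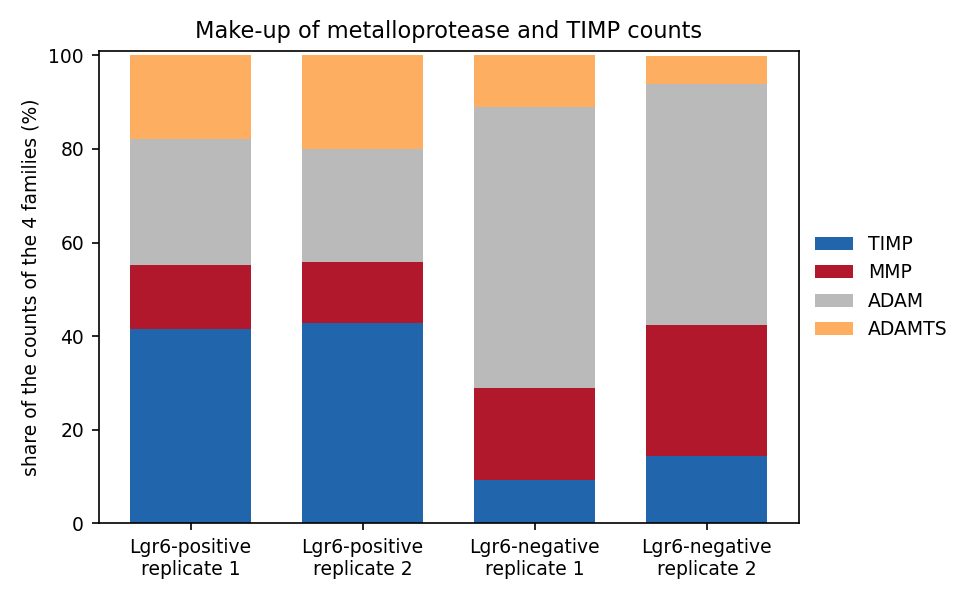
Share of the summed counts of the 79 genes held by each family, in percent, as 1 stacked bar per library. TIMP counts take 41.5% and 42.7% of the bars of the Lgr6+ libraries, and ADAM counts 60.1% and 51.6% of those of the Lgr6- libraries.

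By CPM, the tissue inhibitors were led by Timp3, whose product is held in the matrix and inhibits MMPs, ADAM17 and several ADAMTSs. Its level was 513 and 540 CPM in the Lgr6+ libraries and 75.8 and 71.5 CPM in the Lgr6- libraries (527 ± 19.0 against 73.6 ± 3.09 CPM, given as mean ± SD over n = 2 libraries here and below). The populations lay far apart and the replicates close together. The log2 fold change was 2.84 (SE 0.40, adjusted p = 0.00386). Timp3 spans bases 86300372 to 86349506 of chromosome 10 (GRCm38, plus strand) inside the synapsin gene Syn3 on the other strand, and 21.3% of its exonic bases are also exonic in Syn3. Since the strand setting of the counting is not stated, reads there cannot be told apart. Syn3 had 155 and 230 counts in Lgr6+ and 2 and 4 in Lgr6- libraries, against 4185 and 4262 and 486 and 402 counts of Timp3.

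Timp2, whose product inhibits MMPs and also takes part in the activation of MMP2 by MMP14, was at 262 and 416 CPM in the Lgr6+ and at 45.2 and 42.5 CPM in the Lgr6- libraries. All Lgr6+ values were again above all Lgr6- values, with the wider spread on the Lgr6+ side (339 ± 109 against 43.9 ± 1.95 CPM). The log2 fold change was 2.95 (SE 0.49, adjusted p = 0.00821). It lies on chromosome 11 from 118301069 to 118355740 on the minus strand and shares no exonic base with another annotated gene. Timp2 and Timp3 were called under each of 12 alternatives, with adjusted p-values up to 0.0196 and 0.00780.

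The other inhibitors showed no such separation. Timp1, which encodes a secreted inhibitor induced in many inflamed tissues, had 151 and 3 counts in the Lgr6+ and 0 and 63 in the Lgr6- libraries. Each population thus had a library with counts and a library at or under the floor of 3 counts. The log2 fold change was 0.76 (SE 2.43, adjusted p = 0.907) and turned to -3.82 without Lgr6+ library 1 and to -0.27 without Lgr6- library 1. Timp4 had 12 and 47 against 10 and 0 counts (log2 fold change 2.22, SE 2.26, adjusted p = 0.638). Per kilobase of exon, Timp2 (86.9 CPM) and Timp3 (64.7 CPM) had the highest levels of the 32 genes in Lgr6+ cells, followed by Adamts1 (42.8) and Adam10 (36.8). Timp2 was at 67.2 and 107 and Timp3 at 63.0 and 66.3 CPM per kilobase in those libraries. Per length, Timp3 was below Timp2 in every library, at 0.937 and 0.622 of its level in Lgr6+ and 0.802 and 0.805 in Lgr6- libraries. This order was not tested. In Lgr6- cells Timp2 and Timp3 ranked only 7 and 10, at 11.3 and 9.04 CPM per kilobase.

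**Figure D3:**
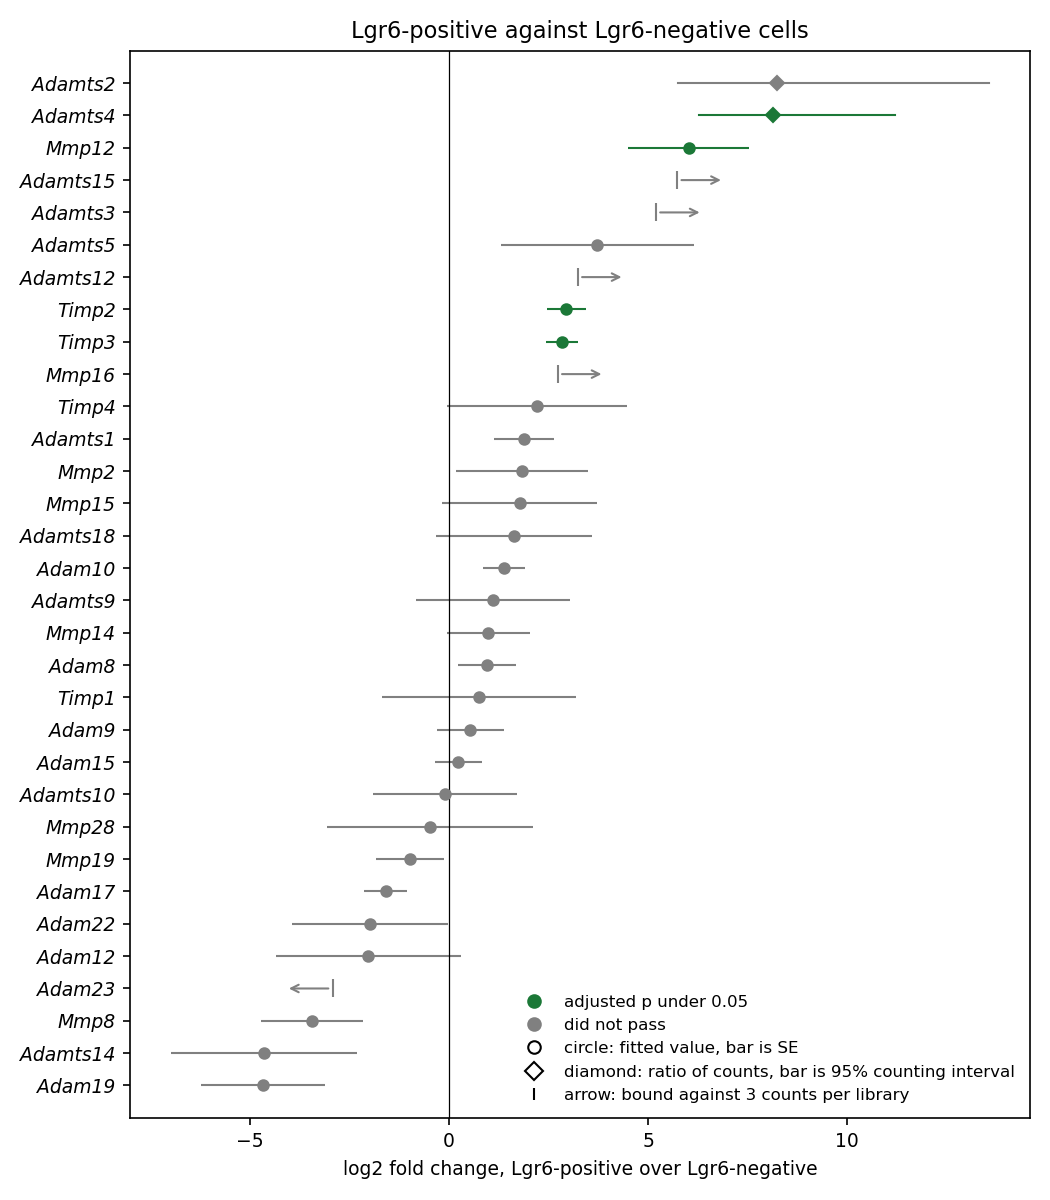
Log2 fold change of the 32 tested genes, Lgr6+ over Lgr6-, sorted by value, with the SE as bars on fitted values, the 95% counting interval on ratios of low counts and arrows for bounds. Timp2, Timp3, Mmp12 and Adamts4 are the called genes (green), and the genes on the negative side, from Adamts10 to Adam19, did not pass.

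Among the MMPs, Mmp12, the metalloelastase known from macrophages, was at 94.4 and 159 CPM in the Lgr6+ and at 0 and 3.91 CPM in the Lgr6- libraries. These were 770 and 1251 counts against 0 and 22, so both Lgr6+ libraries lay well above. The log2 fold change was 6.02 (SE 1.52, adjusted p = 0.0425). It was called under each of 12 alternatives (adjusted p up to 0.0477), and without Lgr6- library 2, which held all 22 counts, the gene was at least 270-fold higher against a floor of 3 counts per library. Without Lgr6- library 1 the log2 fold change was 5.00. Markers of macrophages and monocytes went the opposite way, with 6 of 8 lower and 0 higher in Lgr6+ cells, at a summed level of 1468 and 1820 against 20410 and 22690 CPM. The receptor gene Csf1r was at 51.3 and 106 against 988 and 1403 CPM and Adgre1 at 27.8 and 0.380 against 58.5 and 100.4 CPM. Their part in the level of Mmp12 was not tested.

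Mmp12 lies in a row of 10 MMP genes on chromosome 9, between bases 7272514 and 7699585 of GRCm38 (427.1 kb). None of the other genes of the row was called. Mmp3, Mmp7, Mmp10, Mmp1a, Mmp1b and Mmp27 had no counts in any library, where 3 counts would be 0.368 to 0.533 CPM, and Mmp20 had 3 counts in a single library. Mmp3 and Mmp7 encode stromelysin and matrilysin, which are known from mammary stroma and glandular epithelium. Mmp13, a collagenase gene, had 54 and 1 counts in Lgr6+ and none in Lgr6- libraries and did not pass the filter.

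Mmp8, the neutrophil collagenase gene, lies in the same row and pointed the other way. It was at 0.736 and 25.3 CPM in Lgr6+ and at 145 and 137 CPM in Lgr6- libraries, with 6 and 200 against 931 and 773 counts. The populations did not overlap, but the log2 fold change of -3.44 (SE 1.28) had an adjusted p of 0.129. The Lgr6+ libraries differed more from each other than the Lgr6- ones. Over 12 alternatives the log2 fold change of Mmp8 ran from -7.58 to -2.48. The gene passed under 6 of them, with adjusted p-values up to 0.193. Some of these leave a single library in a population and take its spread from the other population. Per kilobase of exon, Mmp8 had the highest level of the 32 genes in Lgr6- cells (58.3 CPM). Of neutrophil markers, 6 of 9 tested were lower and 1 was higher in Lgr6+ cells (summed level 536 and 647 against 1687 and 1649 CPM). Elane was at 0 in both Lgr6+ libraries and Ly6g at 0 in all 4. The higher marker was the lactoferrin gene Ltf, which the mammary epithelium also makes, and without it the sum was 194 and 138 against 1636 and 1633 CPM. Retnlg, with 79 and 149 counts against none, also pointed that way without passing (adjusted p = 0.0725). Their part in the level of Mmp8 was not tested.

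The promoters of the called genes are shown because Timp2, Timp3 and Mmp12 were higher together and yet differ in base composition. The sequences are the 250 bases before each RefSeq start site in GRCm38.p6, written 5′ to 3′ on the strand of the gene. Capitals mark matches to any of 4 short motifs searched on both strands: the AP-1 motif TGAGTCA, the GC box GGGCGG, the PU box GAGGAA and TATAAA. Each of these windows held 1 match, so none overlapped. For Mmp12, RefSeq gives 2 start sites, with windows at chr9:7344147-7344396 and chr9:7347124-7347373 on the plus strand. The windows of Timp2 and Timp3 are at chr11:118355412-118355661 on the minus strand and chr10:86300162-86300411 on the plus strand.
Mmp12 upstream start: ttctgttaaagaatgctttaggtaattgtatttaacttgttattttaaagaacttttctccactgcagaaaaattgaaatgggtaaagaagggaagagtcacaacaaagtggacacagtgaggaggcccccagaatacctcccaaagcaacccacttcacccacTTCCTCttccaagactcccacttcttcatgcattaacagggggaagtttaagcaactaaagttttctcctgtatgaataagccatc
Mmp12 downstream start: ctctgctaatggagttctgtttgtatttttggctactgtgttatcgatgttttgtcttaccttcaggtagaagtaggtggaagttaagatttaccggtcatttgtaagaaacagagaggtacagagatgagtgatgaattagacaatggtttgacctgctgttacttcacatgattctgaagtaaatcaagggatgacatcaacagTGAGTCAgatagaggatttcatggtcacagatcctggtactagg
Timp2: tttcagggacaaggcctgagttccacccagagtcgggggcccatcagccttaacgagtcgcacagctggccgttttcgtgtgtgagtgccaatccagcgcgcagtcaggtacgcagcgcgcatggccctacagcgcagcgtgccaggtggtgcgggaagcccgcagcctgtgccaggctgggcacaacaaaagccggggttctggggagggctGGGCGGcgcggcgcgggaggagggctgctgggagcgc
Timp3: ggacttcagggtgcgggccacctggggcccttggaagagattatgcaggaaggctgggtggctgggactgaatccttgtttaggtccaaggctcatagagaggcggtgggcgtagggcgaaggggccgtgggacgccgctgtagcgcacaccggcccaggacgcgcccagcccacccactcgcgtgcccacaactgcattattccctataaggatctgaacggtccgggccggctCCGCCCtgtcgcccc

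Bases G and C made up 68.0% of the Timp2 and 65.6% of the Timp3 window but 40.0% and 39.6% of the Mmp12 windows, beside a median of 52.4% over 32851 RefSeq promoters. The Timp2 and Timp3 windows each held 1 GC box, which 32.7% of all promoters held, with no match to the other motifs. The upstream Mmp12 window held 1 PU box (23.3% of all promoters), and the downstream window held 1 AP-1 motif that begins 44 bases before the start (4.46% of all promoters). TATAAA was in none of these windows and in 12.4% of all promoters. The AP-1 motif was in the windows of 7 of the 10 MMP genes of the chromosome 9 row, and 5 of these had no counts in any library. Over the promoters of 49 of the 79 genes that were found by symbol, 9 of 54 windows held it. A match describes the letters only. Adamts4 had no entry.

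The gelatinase gene Mmp2, whose product cuts type IV collagen, had 188 and 83 counts against 10 and 44, which gave 23.0 and 10.5 against 1.56 and 7.82 CPM. The Lgr6+ libraries were above the Lgr6- ones by less than the spread within a population (log2 fold change 1.84, SE 1.66, adjusted p = 0.582). Mmp9, the other gelatinase, had 2 counts in Lgr6+ library 1 alone. The membrane-type gene Mmp14, which activates MMP2, was at 49.3 and 54.0 against 43.2 and 8.53 CPM, and a single Lgr6- library was low (log2 fold change 0.996, SE 1.04, adjusted p = 0.646). Mmp15, also membrane-type, had 247 and 188 against 0 and 89 counts (log2 fold change 1.77, SE 1.94, adjusted p = 0.665) and passed only without Lgr6- library 2 (0.0431). Mmp16 had 10 and 43 counts in Lgr6+ and none in Lgr6- libraries, at least 6.67-fold higher and not called (adjusted p = 0.141), with bounds of 10.9 and 2.45 without Lgr6+ library 1 or 2. Mmp19, a widely expressed secreted MMP, was at 45.9 and 19.5 against 65.5 and 62.9 CPM (log2 fold change -0.97, SE 0.86, adjusted p = 0.569). Exons of other genes cover 28.3% of its exonic bases. Mmp28 had counts in 1 library of each population (27 and 26), and Mmp11, a stromal MMP, had 2 counts in all.

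Of the 33 ADAM genes, 9 were tested and none passed in either direction, and 1 was higher and 3 were lower at an unadjusted p under 0.05, beside 14.3% and 10.8% of all tested genes. DESeq2 called 0 higher and 1 lower (Adam19), beside 12.1% and 8.55%. The main sheddases Adam10 and Adam17 pointed in opposite directions. Adam10, which cleaves Notch receptors and cadherins, was at 179 and 183 CPM in Lgr6+ and at 81.8 and 56.4 CPM in Lgr6- libraries. The populations did not overlap (log2 fold change 1.39, SE 0.53), but the adjusted p was 0.137 and no alternative brought it under the threshold (0.0782 to 0.486). Adam17, which releases tumour necrosis factor and ligands of the EGF receptor, was at 63.4 and 127 against 366 and 204 CPM, with every Lgr6+ library below (log2 fold change -1.58, SE 0.54, adjusted p = 0.105). Adam17 passed under 3 of 12 alternatives, among them without Lgr6+ library 2 (0.00286) or Lgr6- library 2 (0.0473), in a range up to 0.473.

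The level of Adam10 over that of Adam17, each per length of exon, was 4.10 and 2.10 in the Lgr6+ and 0.326 and 0.401 in the Lgr6- libraries. Adam10 was thus the more abundant transcript in both Lgr6+ libraries and Adam17 in both Lgr6- libraries, whatever the scaling between libraries. This ratio was chosen after the values were seen and was not tested. Leukocyte markers, at 135 to 246 against 4933 to 5426 CPM, were lower in the same libraries in which Adam17 was lower, and their part was not tested.

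Adam19, which sheds neuregulins, was at 6.01 and 0.253 CPM in Lgr6+ and at 136 and 23.3 CPM in Lgr6- libraries. The replicates of each population differed several-fold, and the log2 fold change of -4.66 (SE 1.57) had an adjusted p of 0.102. It passed under 6 of 12 alternatives (4.41e-04 to 0.585), and was at -2.91 without Lgr6- library 1. Adam8, a protease of leukocytes and activated epithelium, was at 92.6 and 89.3 against 64.9 and 28.6 CPM (log2 fold change 0.96, SE 0.72, adjusted p = 0.491). Adam9 was at 41.1 and 66.3 against 37.1 and 36.6 CPM (0.54, SE 0.84, adjusted p = 0.779). Adam15 was at 122 and 77.9 against 81.9 and 88.0 CPM, so its libraries overlapped, and its log2 fold change of 0.24 turned to -0.13 without Lgr6+ library 1. Exons of an antisense gene cover 20.6% of the exonic bases of Adam15. Adam12 had 40 and 0 against 111 and 15 counts (log2 fold change -2.02, SE 2.31, adjusted p = 0.683). Adam28 had 76 and 0 against 1 and 0 counts and was not tested.

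The noncatalytic ADAMs, known as adhesion and receptor-binding proteins of neurons, were near the floor. Adam23 had no counts in Lgr6+ and 18 and 16 in Lgr6- libraries, at least 7.56-fold lower and not called (adjusted p = 0.124). Adam22 had 9 and 2 against 10 and 22 counts (adjusted p = 0.624), and Adam11 had 0 and 0 against 15 and 3 and was not tested. Of 21 ADAM genes known from testis and epididymis, 17 had no counts in any library. The other 4 were Adam3 with 11 counts in a single Lgr6- library, Adam21 with 3 counts in an Lgr6+ and 4 in an Lgr6- library, Adam24 with 2 counts and Adam1a with 1.

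Of the 11 tested ADAMTS genes, 1 was higher (9.09%, beside 4.49% of all tested genes) and none was lower (beside 4.57%). The higher gene was Adamts4, which encodes an aggrecanase that also cuts versican and which passed the filter through the Lgr6+ libraries alone. It had 134 and 616 counts in Lgr6+ (16.4 and 78.1 CPM) and 2 and 0 in Lgr6- libraries. Both Lgr6+ libraries were above both others, while differing several-fold between themselves. The ratio was 281 (95% counting interval 77.6 to 2327, adjusted p = 0.0321). Such intervals, like the floors, hold only the error of counting, and understate it where PCR copies of a molecule were counted more than once. They leave out the spread between replicates, which was several-fold for Adamts4. It no longer passed without Lgr6+ library 2, at a ratio of 98.9 (adjusted p = 0.197, in a range from 9.48e-06). The ratio was 470 without Lgr6+ library 1 and 149.8 without Lgr6- library 2, and the bound was 88.6 without Lgr6- library 1. Adamts4 lies on chromosome 1 from 171250421 to 171260637.

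The procollagen N-proteinases Adamts2 and Adamts3 were detected almost only in Lgr6+ libraries. They entered the test through those libraries alone, which favours a higher level there, so passes under other settings are no independent support. Adamts2 had 287 and 117 counts against 0 and 1, 303 times the level (counting interval 54.1 to 12000, adjusted p = 0.0582). Its ratio ran from 142 to 424 with other libraries left out and was a bound of 53.4 without Lgr6- library 2, which held the 1 count. Adamts3 had 208 and 89 counts against none, at least 36.7-fold higher (adjusted p = 0.0607), with bounds of 22.5 and 50.9 without Lgr6+ library 1 or 2. Both missed the threshold, and passed under 6 and 5 of 12 alternatives, DESeq2 (5.52e-04 and 5.54e-04) and limma-voom (0.0194 and 0.0160) among them, with adjusted p-values up to 0.134 and 0.121. Adamts14, the remaining procollagen N-proteinase gene, pointed the other way, with 6 and 0 against 66 and 50 counts (0.736 and 0 against 10.3 and 8.89 CPM, log2 fold change -4.64, SE 2.34, adjusted p = 0.270). The type I collagen gene Col1a2, a substrate of these enzymes, was at 176 and 125 against 6.55 and 14.2 CPM (log2 fold change 3.85, SE 0.76, adjusted p = 0.0162), or 4.49 without Lgr6- library 2. The other type I collagen gene, Col1a1, did not pass, at 175.6 and 20.27 against 7.489 and 16.35 CPM (adjusted p = 0.13). Col3a1 did not pass either (adjusted p = 0.0654). Col1a1 and Col3a1 were chosen after their values were seen. Fibroblast markers, at 629 to 887 against 40.3 to 74.7 CPM, were higher in the same libraries, and their part was not tested. These markers include the collagen genes named here.

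The proteoglycan proteases other than Adamts4 did not pass. Adamts1, which cuts versican and aggrecan, was the most abundant ADAMTS per length in both populations, at 198 and 256 CPM in Lgr6+ and 103 and 19.4 CPM in Lgr6- libraries. The populations did not overlap, and the log2 fold change of 1.89 (SE 0.75, adjusted p = 0.153) was 3.54 (0.00200) without Lgr6- library 1 and 1.12 (0.431) without Lgr6- library 2. It passed under 4 of 12 alternatives. Adamts15 had 19 and 402 counts against none, at least 53.2-fold higher (adjusted p = 0.0657), or at least 4.65-fold without Lgr6+ library 2 (0.540). Adamts5, the aggrecanase next to Adamts1 on chromosome 16, had 87 and 11 against 0 and 5 counts (log2 fold change 3.73, SE 2.42, adjusted p = 0.408). Adamts9 had 138 and 248 against 143 and 0 counts, with a single Lgr6- library at 0 (log2 fold change 1.11, SE 1.93, adjusted p = 0.805). That value depended on which Lgr6- library was kept, at 0.10 without library 2 and at least 45.3-fold higher without library 1, neither of them called. Adamts12, which cuts cartilage oligomeric matrix protein, had 42 and 34 counts against none, at least 9.45-fold higher and not called (adjusted p = 0.118). Adamts10 (152 and 7 against 37 and 85 counts) and Adamts18 (67 and 11 against 14 and 5) overlapped between the populations.

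**Figure D4:**
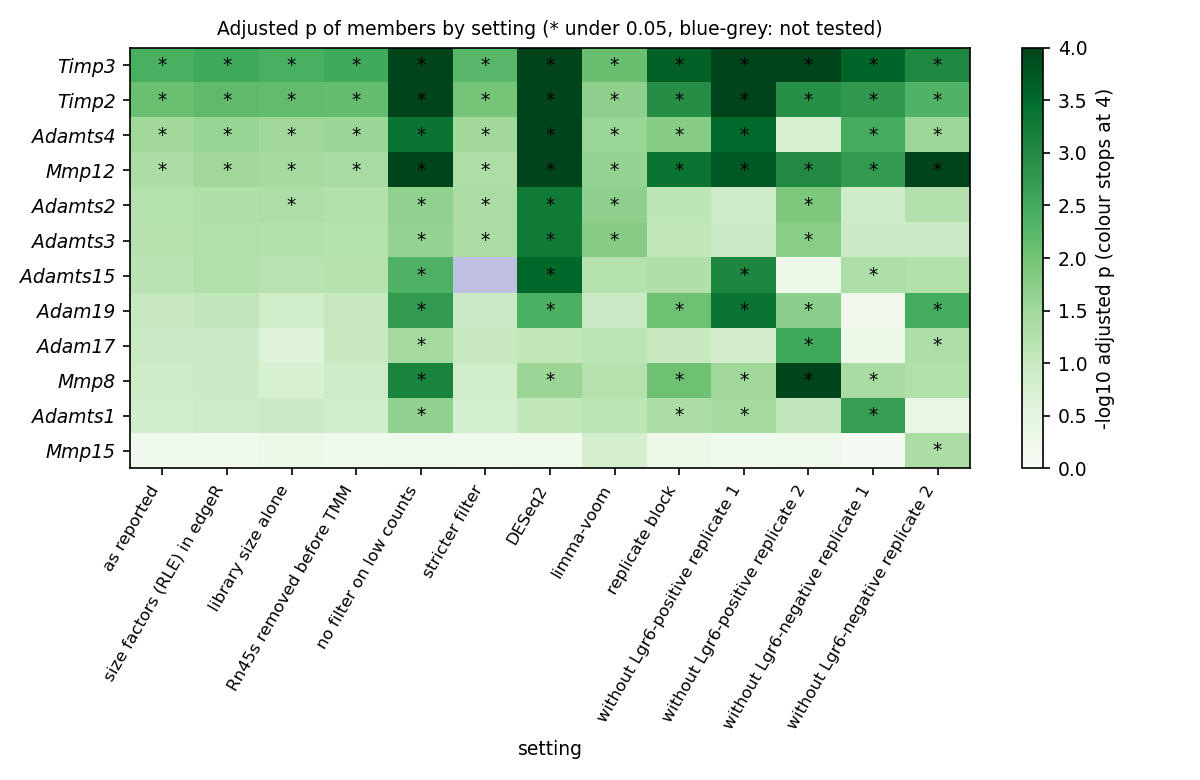
Adjusted p of the 12 genes of the families that passed under at least 1 setting, by setting, as colour on a -log10 scale with a star where it was under 0.05. Timp3, Timp2 and Mmp12 have stars in every column, Adamts4 in all but that without Lgr6+ library 2, and Adam19, Adam17 and Mmp8 have none as reported.

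The remaining genes lay below the filter or had no counts. Of 22 genes below the filter with counts, 12 had them in a single library, and the highest count in any library was 76 (Adam28). Besides those named above, Adamts6 had 6 and 1 counts in Lgr6+ and 1 and 40 in Lgr6- libraries, Mmp17 had 36 and 0 against none, Adamts7 had 2 and 11 against 9 and 0, and Adamts17 had 11 and 1 against none. Mmp21, Mmp23, Mmp24, Mmp25, Adam33, Adamts8, Adamts13 and Adamts20 had at most 6 counts in a library. Of the 25 genes without counts, 17 were ADAMs, 6 were MMPs, and Adamts16 and Adamts19 were the others.

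Genes that work with these proteases were taken from lists chosen with earlier results of these data known, and 5 of them, 3 of these higher, are also cell type markers used here. The shares below therefore describe the lists, and nothing is read from them. Of 76 genes in 5 lists of activators, inhibitors, partners and substrates, 57 were tested, 13 were higher (22.8%, beside 4.49% of all tested genes) and 6 were lower (10.5%, beside 4.57%). In the list of MMP activation and inhibition, 3 of 16 tested genes were higher and 2 were lower. Lcn2, which encodes a lipocalin that binds MMP9, was at 794 and 593 against 55.2 and 107 CPM (log2 fold change 3.10, SE 0.46, adjusted p = 0.00448). Thbs2, which encodes a matrix protein that clears MMP2, had 125 and 302 counts against none, at least 53.5-fold higher, a call lost without Lgr6+ library 2 (adjusted p = 0.0402 and 0.0860, bound then 30.6). The hyaluronan receptor gene Cd44, a docking site for MMP9, was lower at 296 and 394 against 2181 and 2130 CPM (log2 fold change -2.64, SE 0.28, adjusted p = 0.00130), and Thbs1 fell by 1.85 on the log2 scale (SE 0.28, adjusted p = 0.00523). Reck, which encodes a membrane-anchored MMP inhibitor, was at 11.6 and 26.5 against 0.468 and 1.78 CPM and did not pass (adjusted p = 0.208). It was chosen after its values were seen.

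Of 10 tested partners of ADAM10 and ADAM17, 2 were higher (20%, beside 4.49% of all tested genes) and none was lower (beside 4.57%). Both encode tetraspanins that direct ADAM10 to the cell surface. The other tested tetraspanin genes, Tspan14, Tspan15 and Tspan33, overlapped between the populations and did not pass (adjusted p = 0.826, 0.845 and 0.353). Those 3 were chosen after their values were seen. Tspan17 had 257 and 279 counts against none, at least 66.8-fold higher (adjusted p = 0.0263). Tspan5 was at 92.9 and 191 against 18.6 and 11.7 CPM (log2 fold change 3.23, SE 0.75, adjusted p = 0.0311). Tspan5 did not pass in limma-voom (0.0767) or without Lgr6+ library 2 (0.129) or Lgr6- library 2 (0.0582), in a range from 1.89e-04. The iRhom genes Rhbdf1 (126 and 83 against 0 and 14 counts, adjusted p = 0.417) and Rhbdf2 (494 and 135 against 172 and 476, adjusted p = 0.826), whose products carry ADAM17 to the surface, did not pass. They were chosen after their values were seen.

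Among proteins shed from the surface, 4 of 18 tested genes were higher and 3 were lower (22.2% and 16.7%, beside 4.49% and 4.57% of all tested genes). Notch1 was higher (262 and 498 against 53.8 and 47.1 CPM, log2 fold change 2.91, SE 0.50, adjusted p = 0.00959), while Notch2 was lower (105 and 120 against 768 and 390 CPM, -2.37, SE 0.45, adjusted p = 0.0139). The syndecan gene Sdc4 rose to 855 and 796 from 59.9 and 85.9 CPM (3.50, SE 0.39, adjusted p = 0.00143), and the E-cadherin gene Cdh1 was at 509 and 630 against 29.0 and 25.9 CPM (4.37, SE 0.44, adjusted p = 9.58e-04). Sdc1 (3.10, SE 0.74, adjusted p = 0.0346, or 3.73 without Lgr6- library 2) did not pass in limma-voom (0.0507) or without Lgr6- library 1 (0.0787), in a range from 2.73e-04. Tnfrsf1b, a receptor of tumour necrosis factor (-3.96, SE 0.57, adjusted p = 0.00406, or -4.93 without Lgr6+ library 1), was lower. Its product is shed by ADAM17, and leukocyte markers were lower in the same libraries, a part that was not tested. Areg, the amphiregulin gene, was at 114 and 117 against 18.4 and 23.3 CPM without passing (log2 fold change 2.47, SE 0.71, adjusted p = 0.0643) and was chosen after its values were seen.

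Of 8 tested ADAMTS substrates, 3 were higher and 1 was lower (37.5% and 12.5%, beside 4.49% and 4.57% of all tested genes). Versican, encoded by Vcan and cut by ADAMTS1 and ADAMTS4, was lower at 64.3 and 65.8 against 537 and 453 CPM (log2 fold change -2.93, SE 0.41, adjusted p = 0.00390). Acan, the aggrecan gene, had 971 and 14 counts against none, at least 121-fold higher. That call rested on a single library, since the bound was 3.54-fold without Lgr6+ library 1, in which fit Acan did not pass the filter, and it was also lost under library-size scaling (0.0503) and in limma-voom (0.0821, as reported 0.0446). The von Willebrand factor gene Vwf, whose product is made by endothelial cells and cut by ADAMTS13, was at 441 and 494 against 36.4 and 8.71 CPM (log2 fold change 4.37, SE 0.70, adjusted p = 0.00693), or 5.73 and 3.67 without Lgr6- library 1 or 2, and Col1a2 was the remaining higher gene. Endothelial markers, among which Vwf is itself counted, were higher in the same libraries, and their part was not tested. Of 5 tested ADAMTS-like genes and related metalloproteases, Papln, which encodes a papilin with ADAMTS-like domains, was higher at 57.3 and 97.6 against 2.03 and 0.356 CPM (log2 fold change 5.99, SE 1.28, adjusted p = 0.0225), or 5.23 without Lgr6- library 2 and a ratio of 217 (counting interval 59.9 to 1792) without Lgr6- library 1.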

How the data were processed

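Per-gene expected counts of 4 libraries, not scaled for depth, were deposited by the authors in 1 table. Per the submitters' processing notes, RSEM 1.2.22 and STAR 2.4.2a were used with the build mm10. Neither the annotation nor the strand setting is given in these sources. Values were rounded to whole counts. The analysis used R 4.3.3 and edgeR 4.0.16. Libraries were scaled by TMM (factors 1.21 and 1.13 in Lgr6+, 0.929 and 0.787 in Lgr6- libraries) and low genes were removed by filterByExpr (minimum count 10). The test was glmQLFit and glmQLFTest on group alone over 11661 genes, with a Benjamini-Hochberg adjusted p under 0.05. Each SE was obtained by dividing the size of the log2 fold change by the root of its F statistic. A gene without counts in a population has a bound against 3 counts per library, and a gene with 1 to 3 counts a ratio with an exact 95% interval. Replicates differed beyond counting noise (chi-square per degree of freedom 88.3 and 73.0).

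Positions and exon lengths are from GENCODE M21 (GRCm38), matched by symbol for 79 of 79 genes, and promoters from RefSeq (GRCm38.p6). The genes and lists were chosen with earlier results of these data known. Named were the genes of the families that passed, that did not overlap between populations, that had 50 or more counts in 1 library and under 3 in its replicate, or that were on a list of textbook members (35 genes), and up to 4 passing genes per direction from each partner list (19 genes, some of which are not reported here). DESeq2 1.42.0 and limma-voom (limma 3.58.1) were other tests. The steps were run on simulated data, where a pass was required only at a lower spread between replicates than that of these data (common dispersion 0.795). That check therefore does not show how the steps perform at the spread seen here. Python 3.11.15 with scipy 1.17.1 was used for the rest.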

Additional observations from a re-analysis of the deposited data

How the results depend on the processing

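Of the reported calls among the families, Timp2, Timp3 and Mmp12 held under all 12 alternatives and Adamts4 under 11. The number of family genes called higher, 4 of 32 as reported, was 8 of 54 without a filter on low counts and 7 of 32 in DESeq2. The number called lower, 0 of 32 as reported, was 3 of 54 without a filter, 2 of 32 in DESeq2 and 2 of 32 with a replicate block. Calls over all genes rose as well. They went from 524 higher and 533 lower of 11661 to 967 and 854 of 15897 without a filter. In DESeq2 they were 12.1% and 8.55%, beside 4.49% and 4.57% as reported, so these rises were not particular to the family. Partner genes called higher, 13 as reported, numbered 22 without a filter and 25 in DESeq2, and ran from 15 to 19 with a library left out. Those called lower, 6 as reported, numbered 10 and 11, and ran from 8 to 10. With a library left out, Timp1 ran from -3.82 to 9.13, negative without Lgr6+ library 1 and, at -0.27, without Lgr6- library 1. Adam15 ran from -0.13, without Lgr6+ library 1, to 0.50. The causes were not tested.

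Replicate numbers are shared between the populations, but nothing in the labels ties them, and deviations of same-numbered libraries correlated at -0.0202. With the replicate block, 5 family genes were higher and 2 lower, adding Adamts1, Adam19 and Mmp8, and over all genes 678 were higher and 662 lower against 524 and 533. Over all genes, DESeq2 called 1407 higher and 997 lower, no filter 967 and 854, library-size scaling 628 and 327, and the fit without Lgr6+ library 1 956 and 1030. Of the calls, 49.6% were higher as reported, 58.5% in DESeq2 and 65.8% under library-size scaling, which moved the median log2 fold change up by 0.45. With a library left out, its population is 1 sample, assumed to vary like the other. No limit of detection was computed, and counts near 3 limit the precision of the lowest genes.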
